A study of Mus musculus with 10 samples.

Results

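Ribosomal proteins were followed as a group on 10 mouse macrophage arrays of the 2-colour cDNA kind, on which the RNAs of 2 conditions compete for the same spots. Members were chosen by gene symbol alone: features with 1 symbol that names a cytosolic ribosomal protein (Rpl, Rps, Rplp, Rpsa) or a mitochondrial one (Mrpl, Mrps), with the S6 kinases left out. The rule gave 66 features of 62 genes among the 9596 features on the arrays. Of these, 31 features (30 genes) were cytosolic, 17 of the large and 14 of the small subunit. The other 35 (32 genes) were mitochondrial, 20 of the large and 15 of the small subunit. Both classes hold far fewer genes than the ribosomes have proteins, and Rplp0, Rpsa, Rps3, Rps19, Rpl3, Rpl5, Rpl11, Rpl22 and Mrps6 were not measured as features with 1 symbol. Among the cytosolic members, Rpl10a-ps2 and Rps19-ps3 are annotated as pseudogenes, and Rpl39l, Rps4l and Rpl7l1 are paralogues of Rpl39, Rps4x and Rpl7. A further 18 features carried a ribosomal symbol together with other symbols and were left out.

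Macrophages of 2 origins were compared: adherent cells of the peritoneal exudate (PEC), and TAM, macrophages associated with a tumour that had been implanted 3 weeks before. Both came from C57/6N mice aged 8 weeks, and the labels name no transgene or deletion in any group. They were kept in culture untreated or with 100 ng/mL of lipopolysaccharide (LPS), a bacterial cell wall component that activates macrophages through Toll-like receptor 4, for 4 hours. Untreated TAM met untreated PEC on 4 arrays (TAM-8, TAM-3, TAM-b, TAM-2R). LPS-treated PEC met untreated PEC on PEC1 and PEC2, LPS-treated TAM met untreated TAM on TAM-trial and TAM-16, and both treated cells met on TAM1 and TAM7 (2 arrays each). The labels give neither the tumour, nor any pooling of mice, nor whether arrays held RNA of separate mice. The p-values therefore measure only how these arrays differ among themselves, and that spread may be technical. Every value is a deposited log ratio, taken as log2, of the condition named first over the other. The dyes are not in the labels: channel 2 was read over channel 1 because 23 of 26 features of LPS response genes then had a mean above 0 for LPS in PEC (median 2.66), so each direction given here is likely, not certain.

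By print version of the slide, 6 arrays were v3p6, 3 were v9p2 (TAM-trial, TAM7, TAM-8) and PEC1 was v1p1. The median over all features lay between -0.20 and 0.07 on every array, and all 66 members had a value on all 10. The arrays hold no absolute level, so members are compared by their ratios and not by abundance. In bulk RNA, fewer cells of a type and less of an RNA per cell cannot be told apart.

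Cytosolic ribosomes translate the mRNAs of the nucleus and are built in the nucleolus from ribosomal RNA and about equal numbers of each protein. Their proteins are encoded by highly expressed genes whose mRNAs mostly begin with a tract of pyrimidines (the 5' terminal oligopyrimidine or TOP motif), through which mTORC1 signalling controls their translation. Mitochondrial ribosomes are separate machines, descended from bacterial ribosomes, that translate the few mRNAs of the mitochondrial genome for the respiratory chain. Their proteins are also encoded in the nucleus, made in the cytosol and imported. In macrophages, activation by LPS calls for rapid synthesis of cytokines and other secreted proteins, and shifts energy metabolism from respiration towards glycolysis.

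Cytosolic ribosomal protein features had ratios well above 0 for LPS in PEC, with a median over the 31 features of 1.82 on the log2 scale (3.53-fold), while the mitochondrial median was 0.30 and that of all features -0.05. With LPS present, the cytosolic median of TAM against PEC was -1.02 (2.03-fold lower) and the mitochondrial median -0.50. For LPS in TAM the cytosolic median was -1.05, but its 2 arrays had medians of -1.84 and 0.14, on either side of 0. Between untreated TAM and PEC both classes lay near 0. No member passed an adjusted p of 0.05 in any comparison (limma, Benjamini-Hochberg over 9596 features), so all these values are descriptions of the arrays.

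**Figure D1:**
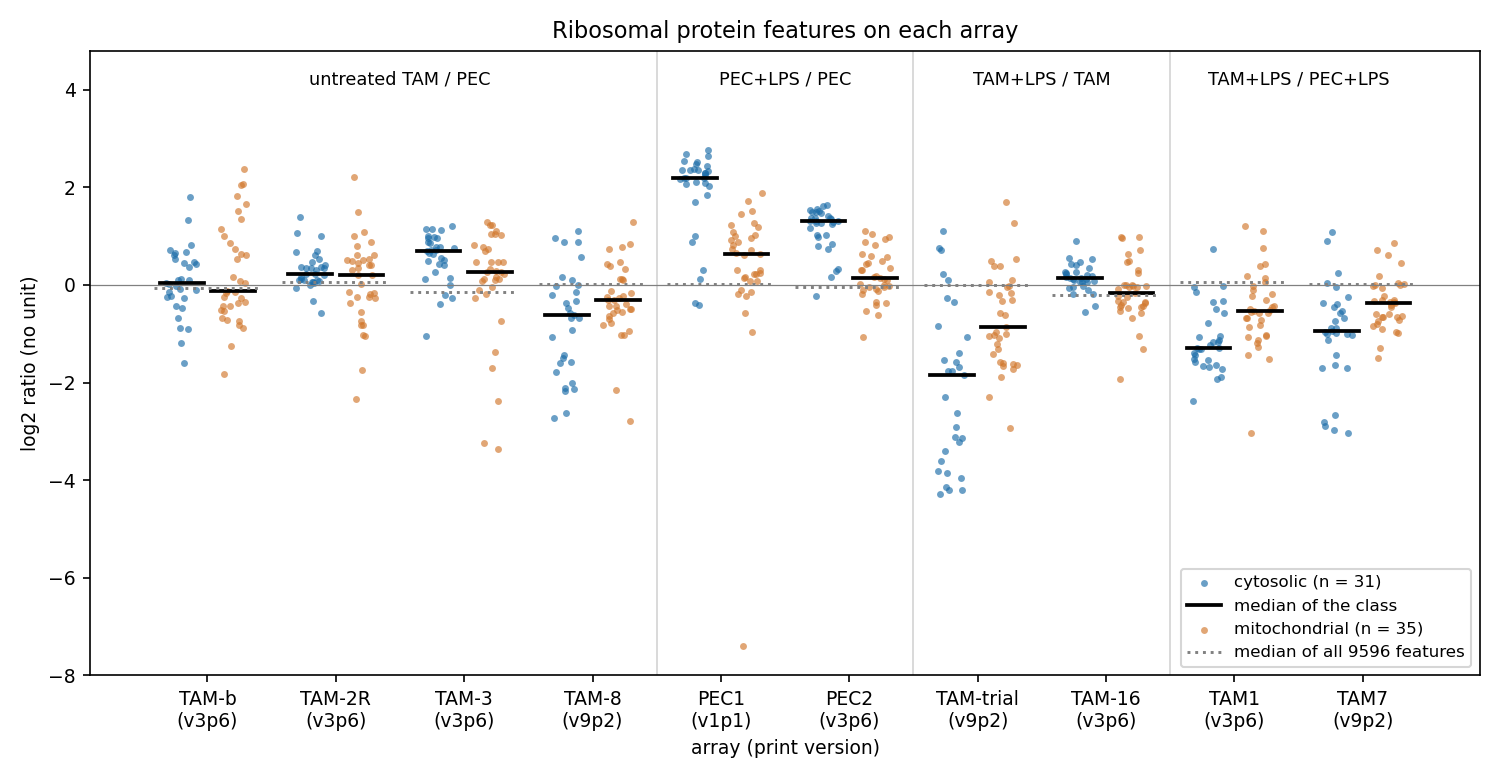
Each point is 1 ribosomal protein feature on 1 array, by comparison, with its log2 ratio on the vertical axis; blue points are cytosolic (n = 31), orange points mitochondrial (n = 35), black bars the class medians and dotted lines the median of all 9596 features. The cytosolic bar stands at 2.19 and 1.31 on the arrays of LPS in PEC, below 0 on both arrays of TAM against PEC with LPS, and at -1.84 and 0.14 on the 2 arrays of LPS in TAM.

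The start sites of the member genes were compared because the cytosolic members moved together across arrays more than the mitochondrial ones did. RefSeq promoter sequence (GRCm38.p6, from 250 bases before to 50 after the annotated start) was matched for 21 of the 30 cytosolic and 25 of the 32 mitochondrial genes. A run of at least 8 bases made only of C or T, touching the 3 bases on either side of the start, was found in 10 of the 21 cytosolic genes (47.6%), in 3 of the 25 mitochondrial genes (12%) and in 8.71% of all 27025 genes of the table. The median length of the longest such run was 7, 4 and 3 bases. The windows below show 15 bases before and 15 after the start for 6 cytosolic genes with the run, 2 without it that followed their class (Rpl6 and Rps23), 2 without it that stood apart (Rpl13 and Rps13), and 4 mitochondrial genes. Capitals mark the longest run of C or T at the start, and each sequence is written on the strand of its gene.
Rps6 (chr4:86857353-86857382, minus strand): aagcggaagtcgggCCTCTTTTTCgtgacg
Rpl35 (chr2:39005117-39005146, minus strand): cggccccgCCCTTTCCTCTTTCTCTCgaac
Rpl28 (chr7:4792950-4792979, plus strand): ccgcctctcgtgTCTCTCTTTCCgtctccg
Rplp2 (chr7:141447636-141447665, plus strand): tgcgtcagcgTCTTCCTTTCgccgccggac
Rps24 (chr14:24490663-24490692, plus strand): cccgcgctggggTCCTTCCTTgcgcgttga
Rpl35a (chr16:33056467-33056496, plus strand): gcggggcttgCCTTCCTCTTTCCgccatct
Rpl6 (chr5:121204486-121204515, plus strand): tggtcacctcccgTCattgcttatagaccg
Rps23 (chr13:90923107-90923136, plus strand): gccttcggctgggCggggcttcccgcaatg
Rpl13 (chr8:123102335-123102364, plus strand): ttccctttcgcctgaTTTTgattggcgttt
Rps13 (chr7:116334176-116334205, minus strand): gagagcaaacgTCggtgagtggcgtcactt
Mrpl12 (chr11:120484622-120484651, plus strand): agctcgCCTCCTCCCggatagagcgtcgct
Mrpl17 (chr7:105811073-105811102, minus strand): tactgcgcatgcgTCCTCTgagacgtgcct
Mrps22 (chr9:98601665-98601694, minus strand): cgagccggaagttgCTCTatcgattccggc
Mrps15 (chr4:126046913-126046942, plus strand): atccggaaccgaTCCattcgctcagccctc

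In these windows the run at the start is 18 bases long in Rpl35 and 13 in Rpl35a, but 4 in Rpl13 and 2 in Rps13. Stretches of C or T away from the start, such as the longer one that opens the Rpl13 window, were not counted. Rpl39l and Rpl7l1, which also stood apart (r under 0.5 with the median of the other cytosolic features over the 10 arrays), have runs of 7 and 1. The matched cytosolic members that stood apart had runs under 8 bases. However, only 10 of the 21 matched cytosolic genes had a run of at least 8, and Rps4l, which stood apart as well, was not matched. Among mitochondrial members, Mrpl44 had a run of 10 and r = -0.14. Among matched cytosolic genes with a run of at least 8, the lowest r was 0.64, for Rplp2. Short runs were also found in members that followed the class, with 2 bases in Rpl6 (r = 0.98) and 1 in Rps23 (r = 0.96). A link between run and r was not tested. Of the mitochondrial genes in these windows, Mrpl12 has a run of 9, and the other 3 have 3 to 6. An ETS-type motif, CCGGAAG on either strand, was present in the 300 bases of 42.9% of cytosolic, 32% of mitochondrial and 9.93% of all genes, and the YY1-type motif AAGATGGC in 19%, 20% and 3.19%. A match is a description of the letters, not of a bound site, and the annotated start may lie some bases from the true one. For LPS in PEC, the 11 cytosolic features of genes with the run had mean ratios of 1.44 to 2.05 (median 1.83), and the 11 matched features without it -0.30 to 1.94 (median 1.35). For TAM against PEC with LPS the medians were -1.14 with and -0.83 without the run. The ranges of both kinds overlapped in every comparison.

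The first comparison asked how PEC respond to LPS. Of the 31 cytosolic features, 29 lay above 0 on both arrays, against 18 of 35 mitochondrial features and 30.9% of all features. The cytosolic array medians were 2.19 on PEC1 and 1.31 on PEC2 (mean 1.75 ± 0.63, SD, n = 2 arrays), and both subunits were alike, with medians of 1.82 for the large and 1.81 for the small subunit. From the lower to the upper quartile the class spanned 1.93 to 2.37 on PEC1. No cytosolic or mitochondrial feature passed an adjusted p of 0.05, at a background of 0.0104%. At an unadjusted p under 0.05 there were 16 cytosolic and 1 mitochondrial feature with a higher ratio and 0 of either class with a lower one, beside 5.36% and 2.41% of all features. The cytosolic count of 16 depended on the arrays in the fit, also on those of other comparisons. Without PEC1 the cytosolic median was 1.31, with 30 features above 0, and without PEC2 it was 2.19, with 29 above 0. Either choice leaves 1 array for this comparison, so counts at that p cannot show which array the 16 came from.

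Rplp1 and Rplp2 encode the acidic proteins of the ribosomal stalk, which recruits elongation factors. Rplp1 had the highest cytosolic mean for LPS in PEC, with 2.78 on PEC1 and 1.49 on PEC2 (2.13 ± 0.91, 4.38-fold, adjusted p = 0.442 by limma). Rplp2 was at 2.18 and 1.64 (1.91 ± 0.38) and had the lowest adjusted p of the class, 0.374. Both genes were far above 0 on both arrays, and higher on PEC1, as most of the class was.

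Rpl19, a large subunit protein often used as a reference gene in PCR, was at 2.69 and 1.41 (2.05 ± 0.90). Rps29, a small zinc-binding subunit protein, was at 2.47 and 1.62 (2.05 ± 0.60). Rps14, whose human counterpart lies in the region lost in the 5q- syndrome, was at 2.37 and 1.56 (1.96 ± 0.57). Rpl13a, whose product also silences translation of inflammatory mRNAs in interferon-treated monocytes, was at 2.29 and 1.37 (1.83 ± 0.66). These 4 genes code for proteins of both subunits and differed by less than the gap between the arrays. Rps6, the substrate of the S6 kinases, had 2 features, at 2.06 and 1.32 for the one and 2.43 and 1.31 for the other.

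A few cytosolic members did not share these values. Rpl13 was at -0.36 and -0.23 (-0.30 ± 0.09), Rpl39l at -0.41 and 0.30, and Rps13 at 0.13 and 0.16. With a term for channel order in the fit, the mean of Rpl13 was 0.58. Rps4l, at 0.32 and 0.73, Rps26, at 0.87 and 0.83, and Rpl7l1, at 1.005 and 0.97, had means between these and the rest. Rpl39l, Rps4l and Rpl7l1 are the paralogues of Rpl39, Rps4x and Rpl7. Rps4x itself was at 2.36 and 1.24, and Rpl7 at 2.19 and 1.02.

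Among mitochondrial members the highest means for LPS in PEC were those of Mrpl21 (1.90 on PEC1 and 0.81 on PEC2), Mrpl27 (1.52 and 1.11, adjusted p = 0.505 by limma) and Mrpl17 (1.73 and 0.42), all large subunit proteins with bacterial counterparts. In a fit of 3 condition effects over all arrays with a term for channel order, Mrpl21 was at -0.30. Mrpl12, the counterpart of the bacterial stalk protein, which also binds the mitochondrial RNA polymerase, was at 1.03 and 0.17. Mrps12, the counterpart of the bacterial protein that shapes the decoding centre, was at 0.30 on both. The mitochondrial class thus held single features in the lower part of the cytosolic range, but its array medians were 0.63 and 0.14.

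Cytosolic features minus mitochondrial features, by class median, came to 1.57 on PEC1 and 1.17 on PEC2. This gap was lower on all the other arrays: 0.42 on TAM-3, 0.31 on TAM-16, 0.16 on TAM-b, 0.02 on TAM-2R, -0.31 on TAM-8, -0.57 on TAM7, -0.75 on TAM1 and -0.99 on TAM-trial. On TAM-b and TAM-16 the 2 medians had opposite signs, and on the other 8 arrays they shared a sign, with the cytosolic median farther from 0.

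**Figure D2:**
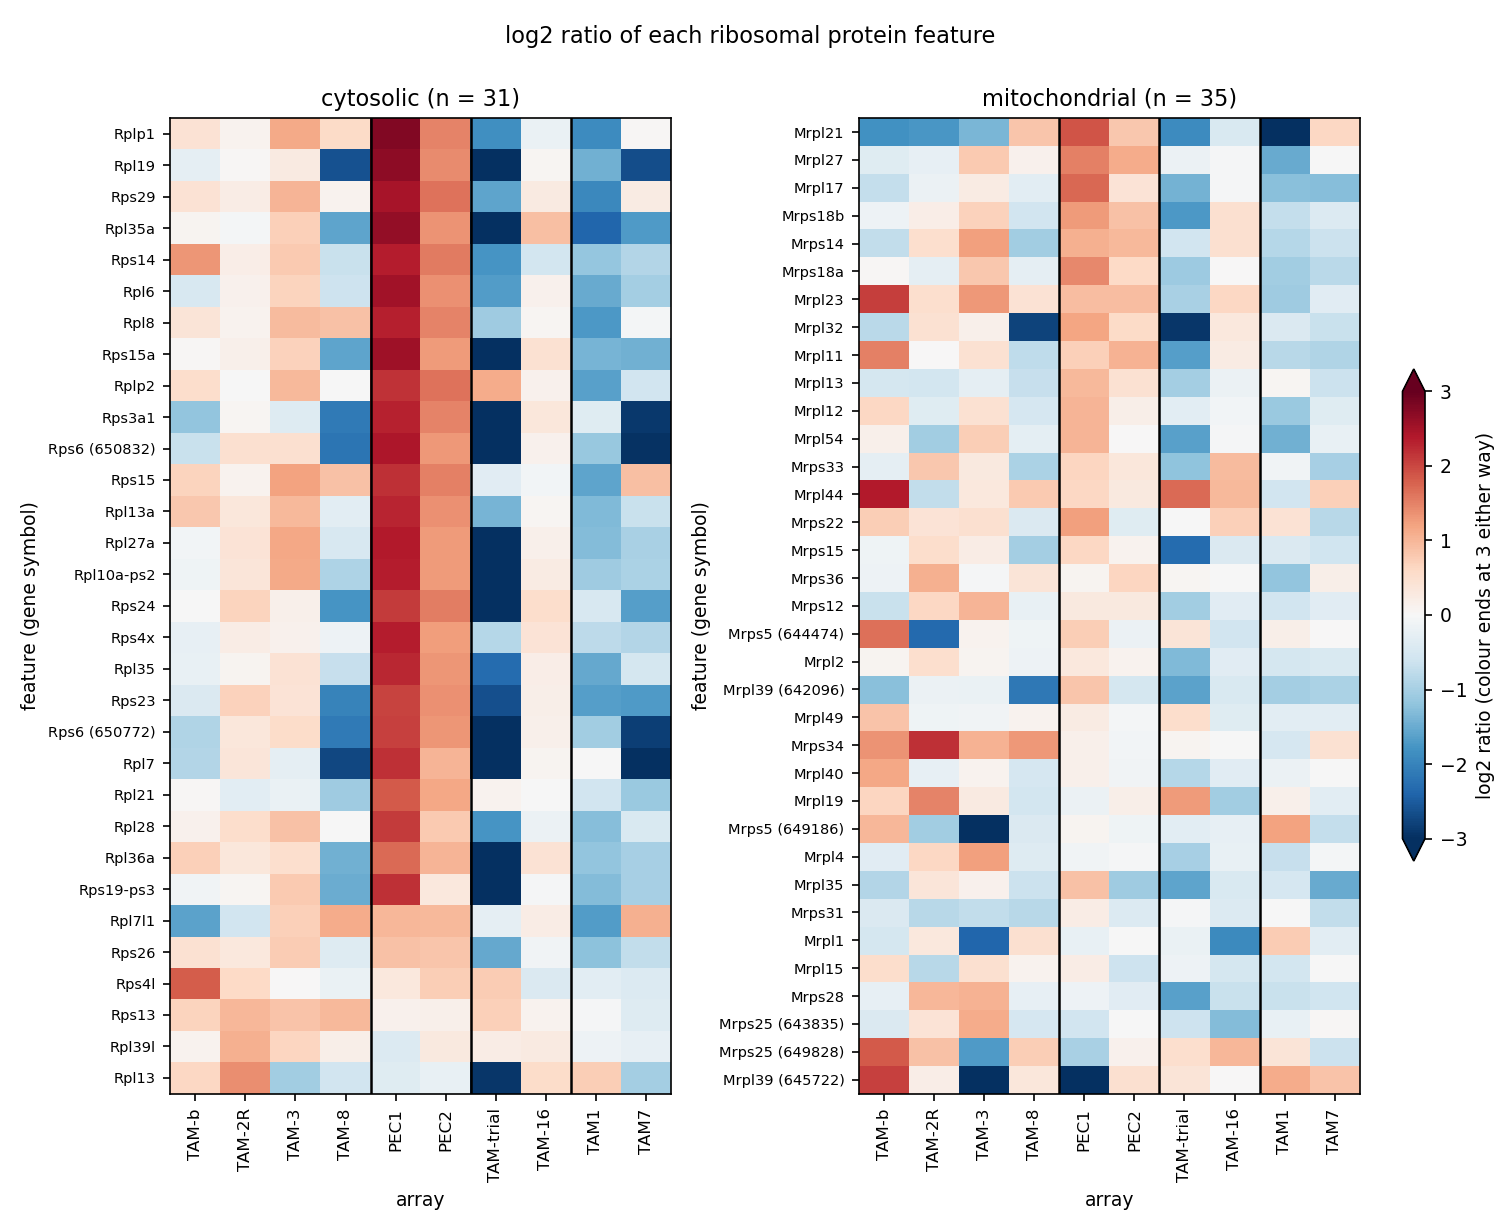
Log2 ratio of every ribosomal protein feature (vertical axis, gene symbols, with feature numbers where a gene has more than 1) on every array (horizontal axis), sorted within each class by mean ratio for LPS in PEC; red is above 0, blue below, and the colours end at 3 either way. The cytosolic block is red on PEC1 and PEC2 except for its last rows, such as Rpl13 at -0.36 and -0.23, while the mitochondrial block mixes both colours.

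The second comparison asked how TAM respond to the same LPS treatment. Here the 2 arrays went apart. On TAM-trial the cytosolic median was -1.84 and 5 of 31 features lay above 0; on TAM-16 it was 0.14 and 23 lay above 0. The mean over arrays was below 0 for 26 of 31 cytosolic features, beside 56.6% of all features, but 6 were below 0 on both arrays (33.8% of all features), 3 above on both (22.5%) and 22 mixed. Without TAM-trial the cytosolic median was 0.14 and 8 means were below 0. No member passed the adjusted threshold, at a background of 0.0% of all features (limma), and at an unadjusted p under 0.05 there were 0 cytosolic features either way and 2 mitochondrial features with a lower ratio, beside 4.72% of all features with a lower and 0.917% with a higher one. Without TAM-16, which leaves TAM-trial alone, the cytosolic median was -1.84 and the mitochondrial median -0.86.

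Rps6 showed a wide gap between the 2 arrays, with -4.28 and -3.95 for its 2 features on TAM-trial and 0.14 for both on TAM-16. Rps24, a small subunit protein, was at -4.21 and 0.53, with a wider gap than either Rps6 feature. Rpl7, a large subunit protein, was at -4.21 and 0.08, and Rpl19 at -4.13 and 0.07. These values are far below 0 on TAM-trial and near or above 0 on TAM-16, so their means (-2.07 ± 3.13 for the first Rps6 feature, -2.07 ± 3.03 for Rpl7) describe neither array. Rplp2 had the highest cytosolic mean, at 1.11 on TAM-trial and 0.13 on TAM-16 (0.62 ± 0.69). Rps13 (0.71 and 0.10) and Rpl39l (0.23 and 0.27) also lay above 0 on both.

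Mitochondrial members were less far apart on these arrays, with medians of -0.86 on TAM-trial and -0.17 on TAM-16. A total of 19 of the 35 were below 0 on both arrays, beside 33.8% of all features. Mrps15, a small subunit protein with a bacterial counterpart, was at -2.30 and -0.44 (-1.37 ± 1.32), the lowest mean of the class, followed by Mrpl32 at -2.92 and 0.32. The highest mean was that of Mrpl44, a large subunit protein with a ribonuclease III-like fold, at 1.70 and 0.98 (1.34 ± 0.51). Mrpl44 lay above 0 on both arrays, against the balance of its class.

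The third comparison asked how TAM and PEC differ once both have had LPS. All 31 cytosolic means lay below 0, from -2.05 to -0.14, beside 44.1% of all features, and 26 were below 0 on both arrays, beside 27.9%. The array medians were -1.29 on TAM1 and -0.94 on TAM7 (mean -1.11 ± 0.25, n = 2 arrays). Of the mitochondrial features, 30 of 35 means were below 0 and 22 were below on both arrays, with medians of -0.54 and -0.37. The direction on TAM1 rests on the labels' statement that its channels were exchanged: with its deposited sign kept, 14 cytosolic means were below 0 and the median was 0.09. No member passed the adjusted threshold, at a background of 0.0625% (limma), and at an unadjusted p under 0.05 there were 3 cytosolic and 1 mitochondrial feature with a lower ratio, beside 6.54% of all features. The cytosolic count depended on the setting, and so did the count over all 9596 features, which was 628 in the main fit. The cytosolic count was 0 without TAM-b, beside 632 of all features, and 12 with TAM1 and TAM7 fitted alone, beside 728. In a fit of 3 condition effects over all arrays it was 24, beside 1036. With the deposited signs of TAM-2R and TAM1 it was 0, beside 19. Without TAM1, which leaves TAM7 alone, the cytosolic median was -0.94.

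Rpl35a, a large subunit protein mutated in some families with Diamond-Blackfan anaemia, was at -2.37 on TAM1 and -1.71 on TAM7 (-2.04 ± 0.47), with the lowest adjusted p of the cytosolic class, 0.541, and a mean of 0.33 with the deposited sign of TAM1. Rpl19 was at -1.43 and -2.66 (-2.04 ± 0.87), and the second Rps6 feature at -1.13 and -2.97 (-2.05 ± 1.30). All 3 were below 0 on both arrays, but for Rps6 the gap between arrays was nearly as large as the mean. Rplp1, at -1.88 and 0.04, and Rps15, at -1.58 and 0.91, were low on TAM1 and not on TAM7. Rps14 (-1.16 and -0.88) and Rpl13a (-1.32 and -0.67) were close on both.

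The members least below 0 were again Rpl13 (0.74 and -1.02), Rpl39l (-0.15 and -0.24) and Rps13 (-0.04 and -0.38). Mrpl17 had the lowest mitochondrial mean, with -1.26 and -1.29 (-1.27 ± 0.02, adjusted p = 0.503 by limma). Mrpl21 was at -3.04 and 0.62, on both sides of 0. Mrpl12 was at -1.12 and -0.37, and Mrps12 at -0.58 and -0.35.

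The LPS responses of TAM and PEC were compared directly as a contrast. The response in TAM minus that in PEC had a median of -2.84 over cytosolic, -0.90 over mitochondrial and -0.11 over all features, with 29 of 31 cytosolic and 30 of 35 mitochondrial features below 0, beside 55.1% of all. No feature of any kind passed the adjusted threshold (0.0%, limma); at an unadjusted p under 0.05, 25 of 31 cytosolic and 4 of 35 mitochondrial features had a lower value, beside 5.7% of all features, and 0 a higher one, beside 0.875%. The cytosolic count of 25 was far lower without PEC1, without TAM-trial and on print v3p6 alone, as were the counts over all features. It stayed near 25 without PEC2 and without TAM-16. These fits leave 1 array for an LPS comparison, so only their medians are given. The cytosolic median was -2.28 without PEC1, -3.28 without PEC2, -1.55 without TAM-trial, -3.72 without TAM-16 and -1.12 on print v3p6. Rps14 had a difference of -3.12 (SE 0.77, adjusted p = 0.754 by limma). Above 0 on both arrays of LPS in PEC and below 0 on both of LPS in TAM were 6 of 31 cytosolic and 9 of 35 mitochondrial features, beside 8.74% of all features.

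The same quantity can be had from the other 6 arrays, as TAM against PEC with LPS minus untreated TAM against PEC. By that route the cytosolic median was -1.18, with all 31 features below 0, beside 51.1% of all features, and the mitochondrial median -0.56, with 28 of 35 below 0. At an unadjusted p under 0.05 there were then 4 cytosolic and 2 mitochondrial features with a lower value, beside 3.17% of all features, and no feature passed adjustment. Both routes gave a cytosolic median below 0, farther below by the first over all arrays. On print v3p6 alone, with 1 array for each LPS comparison, the order was the other way, at -1.12 by the first and -1.62 by the second. With the deposited signs of TAM-2R and TAM1 kept, the second route gave 0.12, with 20 of 31 features above 0.

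The fit of the 4 comparisons to each other can be read from TAM with LPS against untreated PEC, which is reached either through untreated TAM or through PEC with LPS. Over the cytosolic features the medians by these paths were -0.85 and 0.57 on all arrays, and 0.41 and -0.02 on print v3p6 alone. With the deposited signs of TAM-2R and TAM1 kept they were -0.91 and 1.75, and on v3p6 0.20 and 2.44. The paths were thus nearer to each other with the exchanged arrays turned as the labels state, and nearer on v3p6 than over all prints. Over all features the medians were -0.18 and -0.02.

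The fourth comparison set untreated TAM against untreated PEC. The cytosolic median was 0.03 and the mitochondrial median 0.07, with all features at -0.03. Of the 31 cytosolic features, 6 lay above 0 on all 4 arrays, as did 2 of 35 mitochondrial features and 8.53% of all features. Array medians of the cytosolic class were 0.04 on TAM-b, 0.22 on TAM-2R, 0.69 on TAM-3 and -0.62 on TAM-8, the latter of print v9p2. On the 3 arrays of print v3p6 the cytosolic median was 0.33 and the mitochondrial one 0.22. No member passed the adjusted threshold, at a background of 0.406% (limma); at an unadjusted p under 0.05 there were 1 cytosolic and 2 mitochondrial features with a higher and 2 mitochondrial features with a lower ratio, beside 6.33% and 7.71% of all features.

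Mrps34, a small subunit protein of the mitochondrial ribosome, was the member nearest to the threshold in any comparison. It was at 1.34 on TAM-b, 2.20 on TAM-2R, 1.05 on TAM-3 and 1.29 on TAM-8 (1.47 ± 0.51, 2.77-fold, adjusted p = 0.0936). All 4 arrays lay above 1, while on the other 6 arrays Mrps34 was between -0.49 and 0.45. With the deposited sign of TAM-2R kept, its mean was 0.37. Mrpl23 was also above 0 on all 4, at 2.07, 0.50, 1.29 and 0.44 (1.07 ± 0.77).

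Rps13 had the highest cytosolic mean, with 0.67, 1.003, 0.85 and 0.97 (0.87 ± 0.15, adjusted p = 0.236). The 4 arrays of Rps13 lay close together. Rps15 (0.71 ± 0.47) and Rpl8 (0.58 ± 0.41) were also above 0 on all 4 arrays, but a correction for feature position gave -0.25 for Rps15. Rps3a1 (-0.91 ± 0.96), Rpl7 (-0.87 ± 1.34) and Rpl19 (-0.65 ± 1.33) had the lowest means, and their SDs came largely from TAM-8, where they were at -2.12, -2.73 and -2.62. Mrpl21 had the lowest mitochondrial mean, at -1.83, -1.75, -1.37 and 0.83 (-1.03 ± 1.26).

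On the 3 arrays of print v9p2, which compared different conditions, the cytosolic members were spread more widely than on the 6 of print v3p6. The SD across the 31 features was 1.05 to 1.66 on TAM-8, TAM-trial and TAM7, 0.29 to 0.71 on the 6 arrays of v3p6 and 0.88 on PEC1. Rps6, Rpl7, Rpl19 and Rps3a1 lay between -4.28 and -2.12 on all 3 arrays of v9p2. Across the cytosolic features, TAM-8 and TAM7 correlated at r = 0.92, TAM-8 and TAM-trial at 0.79, and TAM-trial and TAM7 at 0.72 (n = 31, a description across genes, with no p), where all features gave 0.57, 0.52 and 0.43. Arrays of the same comparison but of different prints gave -0.26 (TAM1 and TAM7) and -0.38 (TAM-trial and TAM-16). Among the untreated arrays, TAM-8 gave 0.46 with TAM-3, 0.39 with TAM-b and -0.01 with TAM-2R. Within print v3p6 the cytosolic r ran from -0.71 (TAM-3 and TAM1) to 0.65 (TAM-2R and TAM1), so a shared print did not go with a high r there. The pair at 0.65 holds both arrays with exchanged channels, while the pair at -0.71 mixes the channel orders. The part of channel order in these values was not tested. PEC1 and PEC2, of prints v1p1 and v3p6, correlated at 0.82 over cytosolic and 0.09 over mitochondrial features.

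**Figure D3:**
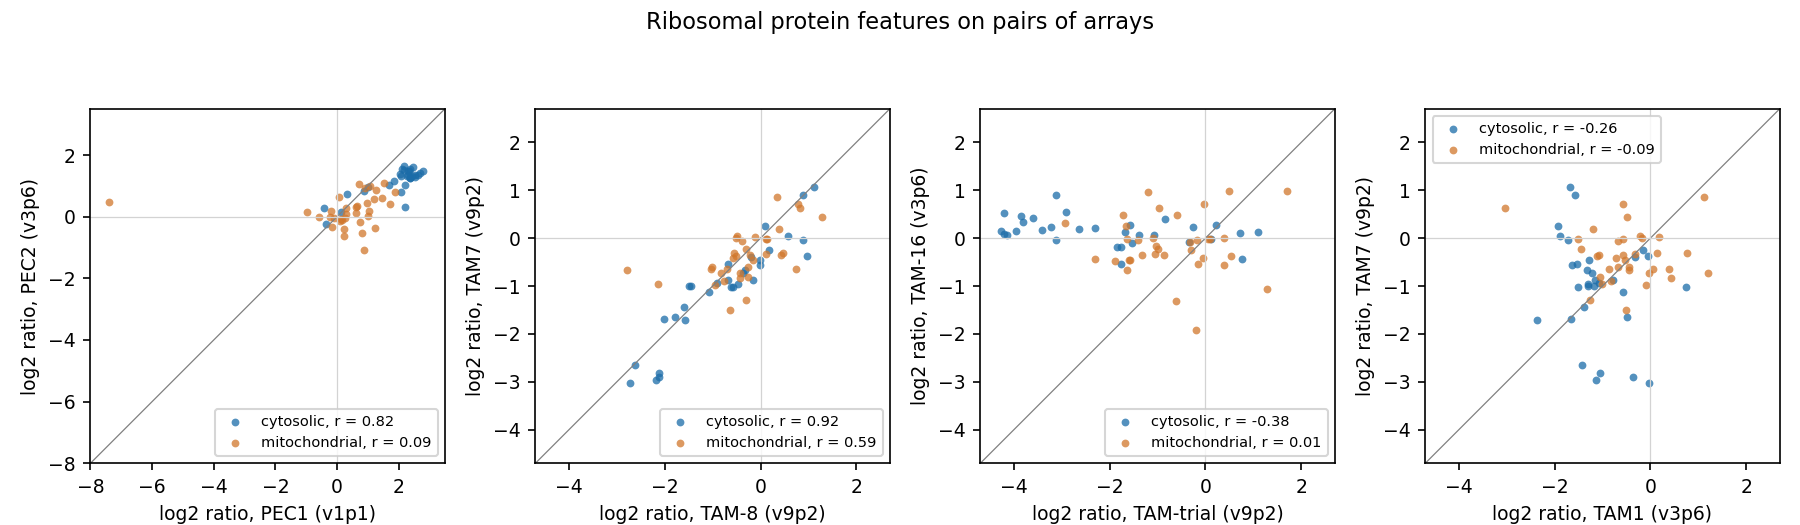
Log2 ratios of the 31 cytosolic (blue) and 35 mitochondrial (orange) features on 4 pairs of arrays, 1 array per axis, with Pearson's r and the line of equal values. Cytosolic features follow a line for PEC1 and PEC2 (r = 0.82), which share a comparison but not a print. They also do for TAM-8 and TAM7 (r = 0.92), which share a print but not a comparison. They do not for TAM-trial and TAM-16 (r = -0.38) or for TAM1 and TAM7 (r = -0.26), which share a comparison but not a print.

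Over the 10 arrays the cytosolic members also moved together. The median correlation of 2 cytosolic features was 0.78 (465 pairs), of 2 mitochondrial features 0.20 (595 pairs), of one of each 0.44, and of any 2 features on the array 0.004. These points share arrays and prints, and they cover 4 comparisons, so the values are descriptions. Against the median of the other cytosolic features, 23 of 31 cytosolic members had r above 0.8, led by Rpl35 (0.98), Rpl6 (0.98), Rpl35a (0.97) and Rpl13a (0.97). Those under 0.5 were Rps13 (-0.04), Rpl39l (0.02), Rps4l (0.15), Rpl13 (0.31) and Rpl7l1 (0.38), which include all 3 paralogues.

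Of the mitochondrial members, 6 of 35 had r above 0.8 with the cytosolic median and 15 were under 0.5. The highest were Mrps18a (0.96), Mrps18b (0.96) and Mrpl17 (0.95). The lowest were one feature of Mrpl39 (-0.69) and one of Mrps25 (-0.35). Mrps36, at 0.35, is today counted as a part of the 2-oxoglutarate dehydrogenase complex rather than of the ribosome.

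Outside the rule, 201 of 9530 features (2.11%) correlated above 0.9 with the cytosolic array medians, as did 19 of the 31 cytosolic and 3 of the 35 mitochondrial members. The nearest named features were Amelx (r = 0.991 over 10 arrays), the gene of an enamel protein, Fxyd5 (0.990), a regulator of the sodium pump, and Ralb (0.983), a small GTPase. Amelx was at 2.25 and 1.08 for LPS in PEC and at -2.68 and 0.21 for LPS in TAM. Among the 5 nearest were also a feature with no symbol (0.985) and one with several (0.981).

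Genes with 2 features let spots of 1 gene be set against each other. The Rps6 features correlated at 0.996 over the 10 arrays and were never more than 0.37 apart. For the mitochondrial genes r was 0.36 for Mrps5, -0.55 for Mrps25 and -0.74 for Mrpl39. On PEC1 the Mrpl39 features were at 0.82 and -7.39, and the second of these was the lowest value of any member. Ribosomal protein genes have many processed pseudogenes of near-identical sequence, and cDNA spots of such copies cannot be told apart by hybridisation.

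**Figure D4:**
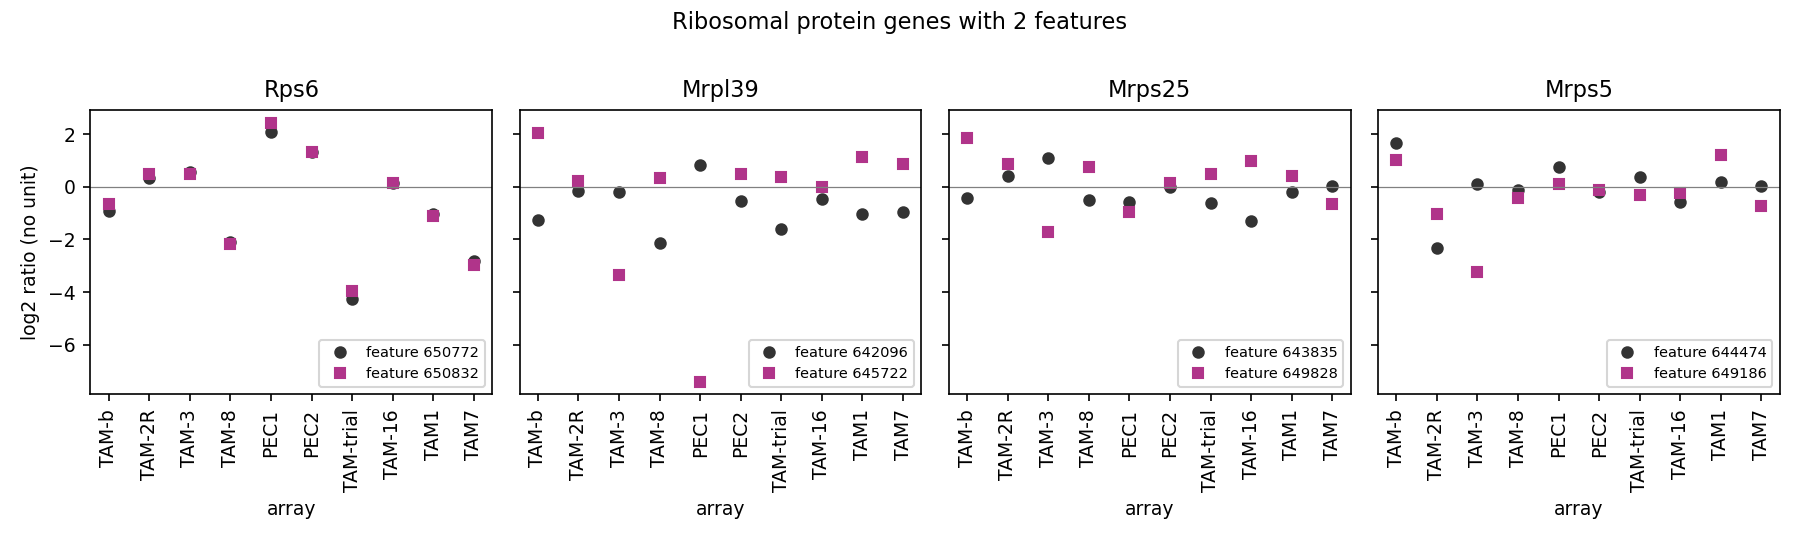
Log2 ratios (vertical axis) of both features of each member gene with 2, on the 10 arrays (horizontal axis); circles and squares are the 2 features. The Rps6 symbols lie on each other on every array (largest gap 0.37), while those of Mrpl39 are 8.21 apart on PEC1.

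Other genes of the translation machinery were described from lists of names. Translation elongation and other TOP mRNA genes (19 features) had medians of 0.91 for LPS in PEC, with 15 means above 0, and of -0.64 for TAM against PEC with LPS, with 16 below 0, between the cytosolic and mitochondrial ribosomal values; no feature of the list passed the adjusted threshold in any comparison. Eef1a1, the factor that brings aminoacyl-tRNA to the ribosome, was at 1.98 and 1.67 for LPS in PEC (1.82 ± 0.22, adjusted p = 0.532 by limma), close to the cytosolic ribosomal median. It was at -2.34 on TAM-trial, 1.01 on TAM-16, -1.17 on TAM1 and -1.81 on TAM7. Eef2, the translocation factor, was at 0.52 and 0.92 for LPS in PEC and at -1.08 and -0.70 for TAM against PEC with LPS. Fau, which encodes a fusion of a ubiquitin-like protein with a small subunit protein, was at 0.95 and 1.64 for LPS in PEC, and at 4.46 on TAM-2R.

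Ribosome biogenesis genes (59 features) had medians of 0.11 for LPS in PEC, -0.32 for LPS in TAM, -0.30 for TAM against PEC with LPS and -0.10 untreated. None of the 59 passed in any comparison. Fbl, the methyltransferase of ribosomal RNA, was at 0.58 and 1.04 for LPS in PEC and at -1.07 and -0.97 for TAM against PEC with LPS (-1.02 ± 0.07). Npm1, a nucleolar chaperone, had means of 0.46 and -0.50 there, and Myc, a transcription factor of ribosome biogenesis genes, -0.08 and 0.01. The list median of ribosome biogenesis lay nearer to 0 than the cytosolic ribosomal proteins in each of the comparisons with LPS.

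Mitochondrial translation and genome expression genes other than ribosomal proteins (21 features) had medians between -0.21 and 0.13 over the 4 comparisons. S6 kinase and mTORC1 pathway genes (21 features) lay between -0.26 and 0.16. No feature of either list passed in any comparison. Tfam, which packages and transcribes the mitochondrial genome, had a mean of -0.17 for LPS in PEC and 0.64 untreated.

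Markers of cell types moved with the cytosolic members in part. The 11 features of macrophage markers had medians of 1.70 and 1.24 on the arrays of LPS in PEC, -1.88 and 0.19 for LPS in TAM, -1.49 and -1.58 for TAM against PEC with LPS, and -0.82 on TAM-b, 0.17 on TAM-2R, -0.05 on TAM-3 and -1.24 on TAM-8. Of the 11, 10 lay above 0 on each array of LPS in PEC and 0 on TAM-trial. These medians had the sign of the cytosolic ones on all arrays but TAM-b and TAM-3, and their part in the result was not tested. Proliferation markers (19 features) had a median of 0.84 for untreated TAM against PEC, where Mcm5, a subunit of the replicative helicase, passed at 1.78 ± 0.58 (adjusted p = 0.0478, 4 of 4 arrays above 0), while the cytosolic ribosomal median was 0.03. Fibroblast markers (16 features) had a median of 0.54 there, and 1 of the 2 Igfbp4 features passed (2.19 ± 0.63, adjusted p = 0.0389). Neutrophil markers (10 features) were at 0.88, T and NK cell markers (12) at -0.33 and B cell markers (7) at -0.45, with none past the threshold. For LPS in PEC these 5 lists lay between -0.38 and 0.52.

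The 18 features with several symbols, one of them ribosomal, had medians of 0.17 for untreated TAM against PEC, 1.55 for LPS in PEC, -0.95 for LPS in TAM and -0.88 for TAM against PEC with LPS. These values stood on the same side of 0 as the cytosolic members in each comparison.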

How the data were processed

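Two-colour cDNA arrays were analysed from the log ratios that the authors deposited, 1 per feature and array, taken as log2. No label or header names the dyes, the log base, the image analysis or the normalization, which are thus not stated. Base 2 was taken because the highest absolute value, 11.687, would in base e be a ratio of 119000, above the 65535 of a 16-bit scanner channel. Depth does not apply; the 10 arrays limit the precision, and no filter on dim spots was possible.

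Channel 2 was read over channel 1, and the signs of TAM-2R and TAM1, labelled with channels exchanged, were reversed. Feature names came from the platform table (7486 features with 1 symbol, 483 with several, 1627 with none), and all 66 members matched the RefSeq table by Entrez identifier. Features were tested singly over all 9596, since features of 1 gene disagree, with limma 3.58.1 in R 4.3.3 (lmFit, eBayes; 1 mean per direct comparison, 6 residual degrees of freedom; two-sided, Benjamini-Hochberg, threshold 0.05) and tested on simulated data. SDs are over arrays and standard errors from the fit. Means of the LPS comparisons within PEC and within TAM hold any dye effect, since both arrays had 1 channel order.

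Named members were the 3 highest and 3 lowest of each class per comparison, genes with more than 1 feature and a short list of known genes (Rplp1, Rplp2, Rps6, Rps14, Rpl13a, Mrpl12, Mrps12 and partner genes outside the rule); members named for a pattern across arrays were chosen after their values were seen. Members and lists were chosen with earlier results of these data known. Alternatives covered centring, scaling, feature position, averaging by gene, dye term, loop fit, print version, the coding of exchanged arrays, dim ratios and each array left out.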

Additional observations from a re-analysis of the deposited data

Results flagged for a closer look

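Among the 4 arrays of untreated TAM against PEC, 2 of 68 groups of values tested (the 66 members and both class medians) had a lone extreme array by Dixon's test at its usual critical value, where chance gives about 1 in 20. Rpl36a, a large subunit protein, was at -1.44 on TAM-8 and at 0.71, 0.35 and 0.51 on TAM-b, TAM-2R and TAM-3. Mrpl21 was at 0.83 on TAM-8 and at -1.83, -1.75 and -1.37 on the same 3 arrays. TAM-8 is the array of print v9p2 in both cases. The mitochondrial members' median lay above 0 on both arrays of LPS in PEC and below 0 on both of LPS in TAM, a difference of -0.90 that was not tested for the median.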

How the results depend on the processing

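No member passed an adjusted p of 0.05 under any alternative run, arrays left out included (0 in each class and comparison; lowest adjusted p 0.076, for a mitochondrial member untreated). Named members moved by at least 1 SD over arrays in 54 of 568 values under the other alternatives. With an array left out the count was 0 of 480, but this was fixed in advance. Leaving out 1 of 2 or 1 of 4 arrays cannot move a mean by as much as their SD. That count therefore does not show that the values were stable, and single members could change sign with 1 array.

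The cause of the following shifts was not tested. For TAM against PEC with LPS the cytosolic median was -1.33 after centring and scaling, -1.50 in the loop fit, -1.51 with a dye term in it, -1.29 on print v3p6 alone and 0.094 with the deposited signs of TAM-2R and TAM1 (14 of 31 features below 0). The mitochondrial median was -0.68 after centring and scaling, 0.038 with the deposited signs (16 below 0) and -0.37 without both exchanged arrays. With the features of smallest ratios left out, which removes members, 19 mitochondrial features were below 0 there and 19 in the difference of LPS responses. The cytosolic median of that difference was -1.12 on print v3p6 and -1.18 from the other 6 arrays, where the deposited signs gave 0.12. For LPS in TAM, 8 cytosolic features were below 0 on print v3p6. With print as a random block, the cytosolic medians were 0.08 untreated, 1.83 and -1.05 for LPS in PEC and TAM, and -1.03 for TAM against PEC with LPS.

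Leaving out each array gave cytosolic medians of 1.31 to 2.19 for LPS in PEC, -1.84 to 0.14 for LPS in TAM (8 to 26 features below 0), -1.29 to -0.94 for TAM against PEC with LPS, -3.72 to -1.55 for the difference and -0.13 to 0.33 untreated. The mitochondrial medians were 0.14 to 0.63, -0.86 to -0.17, -0.54 to -0.37, -1.35 to -0.54 and -0.09 to 0.22 in the same order. The sign of the cytosolic median for LPS in TAM turned without TAM-trial. No paired analysis was possible because the groups share at most 1 replicate number. With 2 arrays in 3 of the 4 comparisons and no channel intensities used, a low signal cannot be told from a small ratio.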
